A study of Homo sapiens
Rattus norvegicus and Homo sapiens with 10 samples.

Results

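The replication-dependent histone genes are the gene set described here. They were chosen by name: the rows of the count table named H1-1 to H1-6, or named H2AC, H2BC, H3C or H4C with a number. That rule took 69 of the 62754 genes in the table, with no pseudogenes among them: 6 linker histone H1 genes, 17 H2A, 18 H2B, 13 H3 and 15 H4 genes. No measured value entered the rule, but the gene set was chosen with earlier results of these data known.

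These genes supply the histones that package newly made DNA, so their mRNAs accumulate as a cell copies its genome in S phase and are destroyed as S phase ends. A pair of each of H2A, H2B, H3 and H4 forms the core of a nucleosome, and H1 binds the linker DNA where it enters and leaves. Unlike other mRNAs, theirs usually end in a short stem-loop in place of a poly(A) tail; the stem-loop binding protein SLBP holds that structure and the U7 small nuclear RNA guides the cut behind it.

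The samples were U251N cells, a human glioblastoma line, grown in the brains of adult female athymic RNU/RNU rats, whose lack of a thymus leaves them without normal T cells. The 3 recurrent tumours had grown back after LITT, an ablation that heats tumour tissue from a laser fibre while MRI tracks it (laser interstitial thermal therapy). The 3 primary tumours were not ablated. The 3 control brains, labelled tumour-free, comprised a failed graft, which is control replicate 1, and 2 procedural ones, and 1 library came from U251N cells in culture. All tumours therefore share the cell line, the rat strain and the implantation, and the culture differs from them in every one of these but the cells. Whether every library stems from a separate rat is not in the labels, so p-values measure the spread between these libraries. Replicates are numbered in the order of their records.

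Total counts were 20321590 to 25299612 in recurrent tumours, 25316552 to 39714714 in primary tumours, 1358753 to 4158124 in controls and 65058642 in the culture. The labels give a human share of reads of 29.4% to 42.7% in recurrent tumours, 42.5% to 64.4% in primary tumours and 0.33% to 4.90% in controls. Summed over the glioma markers, tumours held 7804 to 9907 CPM (a gene's share of the library's total count, scaled to 1000000), against 93.5, 588 and 6975 CPM in control replicates 1, 2 and 3. Control replicate 3 thus carried glioma markers near the tumour level. In bulk tissue, fewer cells of a type and less RNA per cell cannot be told apart. Because the libraries were ribodepleted, mRNAs without a poly(A) tail could be counted, and the RNA was not treated with a separate DNase.

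The stem-loops are shown because they are the feature that sets these mRNAs apart, and because the classes differ in them. They were searched in the GENCODE 29 transcripts (GRCh38) on the transcript strand only, as an arm GGNNNN, a loop TTTN and an arm NNNNNN that pairs with the first, G-T pairs allowed. All 69 genes had a transcript there, 65 by gene identifier and 4 by an older symbol, and 30 held a match. The matches were in 7 H2A, 11 H2B, 4 H3 and 8 H4 genes, and in no H1 gene. Of the 39 genes without a match, 32 have models that stop at the end of the coding sequence, so the letters behind it could not be searched. Over the longest transcript per gene there were 0.447 matches per kilobase in the histone genes, against 0.0092 per kilobase in 19853 other protein-coding genes, of which 3.25% held at least 1 match. The capitals below mark the 6-base arms of the stem, and T stands for U.
H2AC8, chr6:26217417-26217432, plus strand: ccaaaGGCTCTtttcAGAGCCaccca
H2BC8, chr6:26216218-26216233, minus strand: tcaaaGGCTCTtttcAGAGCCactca
H2BC4, chr6:26123472-26123487, minus strand: ccaaaGGCTCTtttaAGAGCCaccca
H3C14, chr1:149840692-149840707, minus strand: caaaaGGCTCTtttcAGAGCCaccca
H4C5, chr6:26205001-26205016, plus strand: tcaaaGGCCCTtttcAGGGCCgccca
H4C14, chr1:149833032-149833047, plus strand: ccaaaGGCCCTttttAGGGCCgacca
H2AC11, chr6:27133515-27133530, plus strand: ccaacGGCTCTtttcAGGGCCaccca

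Coordinates cover the stem and loop, and 5 bases on each side are printed with them. The stem GGCTCT with its perfect partner AGAGCC stood in the matched H2A, H2B and H3 genes other than H2AC11, in 17 genes with the loop TTTC and in 4 with the loop TTTA. The matched H4 genes instead had GGCCCT with AGGGCC, in 5 genes with the loop TTTC and in 3 with TTTT. H2AC11 was the exception, with the left arm of the first kind and the right arm of the second, joined by a T-G pair.

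Histone RNA was abundant in all 6 tumours. The 69 genes together made up 8345, 6743 and 8136 TMM-scaled CPM in the recurrent tumours, against 6556, 12970 and 8121 in the primary tumours (TMM is edgeR's scaling between libraries). The recurrent values lay within the primary range, whose top was primary replicate 2. The means were 7741 ± 871 in recurrent and 9217 ± 3346 in primary tumours (SD, n = 3 each), a log2 ratio of -0.25. Without primary replicate 2 the ratio was 0.08, so its sign rests on that library.

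The classes held near-constant shares of the histone counts. Over the 6 tumours, H1 took 21.8% to 23.8%, H2A 24.8% to 28.2%, H2B 20.9% to 23.6%, H3 17.3% to 18.5% and H4 9.15% to 10.5%. In the culture H1 took 24.1% (95% Wilson interval 23.9% to 24.2%), just above the tumours, and H2A took 24.2% (24.0% to 24.3%), just below them. Such intervals cover counting error only. Per kilobase of coding sequence, summed CPM of the library total was 2912 ± 685 for H1, 5730 ± 1570 for H2A, 4995 ± 917 for H2B, 3741 ± 891 for H3 and 2698 ± 607 for H4 (SD, n = 6 tumours). H2A and H2B had the highest means per coding length. The SDs of H2A and H2B overlap, as do those of H2B and H3, but they include differences between libraries that all classes share. Within each of the 6 tumours, summed CPM of the library total was higher for H2A than H2B and for H2B than H3. The closest values were 2013 against 1923 CPM, for H2A and H2B in recurrent replicate 3. Per kilobase of transcript H2A was at 4461 ± 1219, H2B at 2824 ± 545, H1 at 2812 ± 668, H3 at 2790 ± 639 and H4 at 1450 ± 350, so the place of H2B above H1 and H3 rests on the length used.

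**Figure D1:**
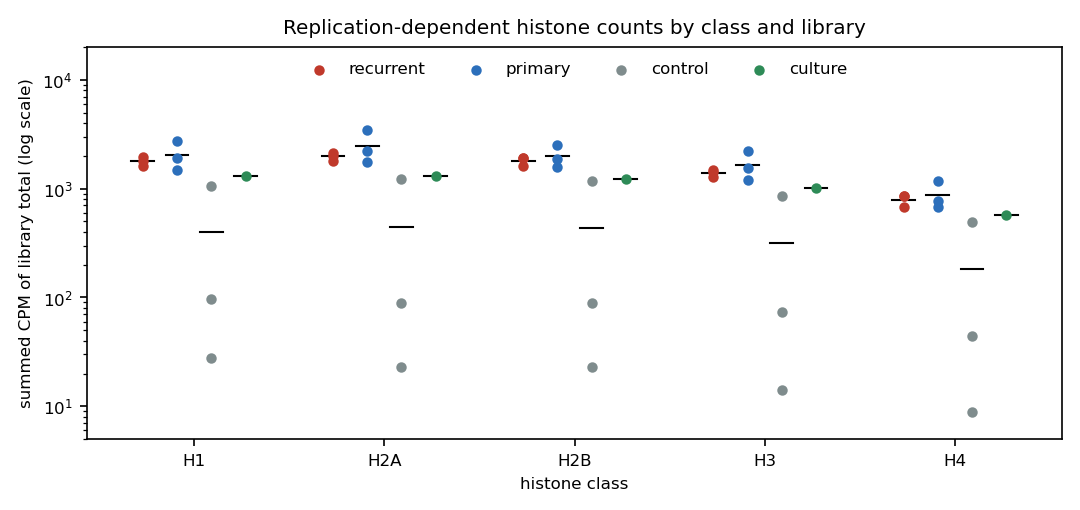
Summed CPM of the library total (log axis) for each histone class in each recurrent, primary, control and culture library; a black line marks a group's mean. The culture lies below every tumour in each class, and the controls spread from 8.83 CPM (H4, replicate 1) to 1225 CPM (H2A, replicate 3).

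Within a class the levels spanned a wide range. The linker histone H1-2 (chr6:26055787-26056428) was the highest member per kilobase of coding sequence, with H1-5 (chr6:27866849-27867529) behind it. On TMM-scaled CPM their tumour ranges, 494 to 1050.0 and 438 to 1025, overlap, but H1-2 was above H1-5 within every tumour. H1-4 ran from 365 to 621 TMM-scaled CPM and H1-3 from 145 to 257. H1-6, the linker histone known from the testis, stood at 1.79 to 5.45 TMM-scaled CPM. H2AC18, H3C3 and H2AC20 followed the 2 H1 genes in the order per kilobase of coding sequence. Ordered per kilobase of transcript, 8 of the 10 highest members were the same.

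Of the 69 genes, 59 passed edgeR's filter on low counts for the tumours, and 10 did not. The 10 were H1-1, H2AC1, H2BC1, H2AC14, H2BC14, H4C6, H4C7, H4C11, H4C12 and H4C13, and no tumour held more than 12 counts of any of them. H2AC1 and H2BC1, a divergent pair known for its products in the testis, had 0 counts in all 10 libraries, and so did H4C7. The limit behind a 0 is 3 counts, or 0.0755 to 0.148 CPM of a tumour library's total. H4C6 had 4, 12 and 1 counts in recurrent and 0, 0 and 1 in primary tumours, so on CPM its groups did not overlap, but these counts were too few to test and no fold change is given.

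Most of these near-silent genes lie between counted ones, but H2AC1, H2BC1 and H1-1 form the outer end of the chromosome 6 row. H2AC14, H2BC14, H4C11 and H4C12 follow each other on chromosome 6 between H3C10, at 85.1 ± 21.3 CPM of the library total, and H2BC15, at 53.7 ± 8.57 (SD, n = 6 tumours). H4C6 and H4C7 lie between H1-3, at 182 ± 31.8 CPM, and H3C7, at 123.7 ± 20.96 CPM. The culture showed the same genes at or near 0, with 5 counts of H2AC14 as the highest. H4C11 carries a complete stem-loop of the H4 kind in its model, so a near-silent gene can hold a full stem-loop.

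**Figure D2:**
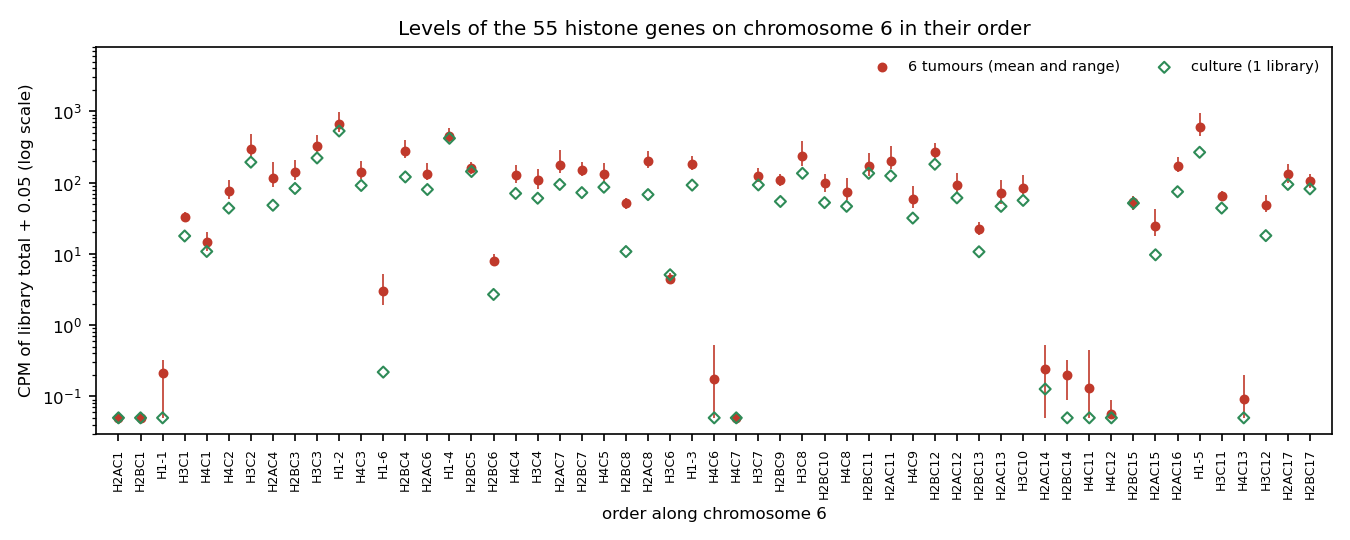
CPM of the library total plus 0.05 (log axis) of the 55 histone genes of chromosome 6 in their order along it, as the mean and range of 6 tumours (red) and the value of 1 culture library (green diamonds); points at 0.05 are zeros. H2AC1, H2BC1 and H1-1 at the left end, and the genes from H4C6 to H4C7 and from H2AC14 to H4C12 within the row, are at or near 0 in tumours and culture.

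The genes lie in 4 places. Chromosome 6 held 55 members and 80.9% of the histone counts in tumours, the chromosome 1 cluster at 149782689 to 149887916 held 11 members and 18.7%, a pair near 228456979 on chromosome 1 (H2AC25 and H2BC26) held 0.238%, and H4C16 on chromosome 12 held 0.255%. Starts of 11 gene pairs faced away from each other within 1000 bases, each an H2A with an H2B gene and with 218 to 330 bases between them. In 9 of the 11 both genes were tested. The partners need not be equal: H2BC8 stood at 51.6 ± 8.04 CPM and its partner H2AC8 at 199.5 ± 40.7 CPM, and H2BC21 stood at 74.3 ± 8.39 and H2AC20 at 304.5 ± 99.3 CPM of the library total (SD, n = 6 tumours). H2A and H2B genes differ little in coding length.

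The gene pairs in the duplicated part of the chromosome 1 cluster cannot be told apart by their coding letters. H2AC18 and H2AC19 are identical over 390 coding bases, H3C14 and H3C15 over 408 and H4C14 and H4C15 over 309, with 0 differences in each pair, and their stem-loops are identical as well. Salmon estimates how such shared reads divide between copies. The split differed most for the H4 pair: H4C14 had 2771, 122 and 2635 counts in recurrent and 2894, 4841 and 3054 in primary tumours, while H4C15 had 1455, 3926 and 2273 counts in recurrent and 1197, 1405 and 3499 in primary tumours. Recurrent replicate 2 alone had almost all of the pair in H4C15. The H4C14 level varied 44.0-fold over the 6 tumours, but the sum of the pair only 1.71-fold. H2AC18 took 45.1% to 87.8% of its pair and H3C14 82.6% to 100% of its own, with sums that varied 2.16-fold and 1.96-fold.

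H3C15 had 0 counts in recurrent replicate 1, whereas its copy H3C14 had 3683 there. Values of a single gene of these 3 pairs are therefore uncertain, and the sums are firmer. The 53 tested members outside the pairs varied 1.39-fold to 3.04-fold over the 6 tumours, with a median of 2.00-fold; H1-6 varied most.

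**Figure D3:**
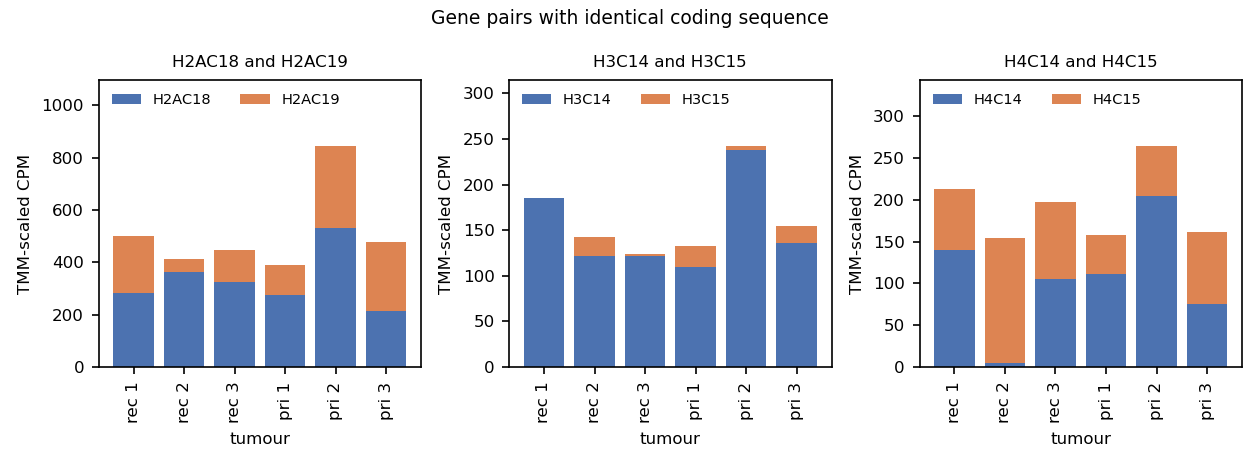
TMM-scaled CPM of the 3 identical gene pairs of chromosome 1 in each of 3 recurrent (rec) and 3 primary (pri) tumours. Bars are stacked so that the full bar is the pair's sum. The division of H4C14 and H4C15 changes more than the height of their bars, with almost all of the pair in H4C15 in recurrent replicate 2; H3C14 holds most of its pair in all 6 tumours.

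The main question of the design was whether recurrent tumours differ from primary ones. None of the 59 tested histone genes passed the test: edgeR's quasi-likelihood test (two-sided, Benjamini-Hochberg adjusted over 15928 genes at 0.05) called 0, and 1 (1.69%) had an unadjusted p under 0.05, against 8.38% of all tested genes. DESeq2 and limma-voom also called 0 members, with 3 and 1 at an unadjusted p under 0.05. Over all genes 0.00628% were called, which is 1 gene, so a count of 0 among the histones lies near that background. The groups overlapped for each of the 59, whereas 15.4% of all tested genes had groups that did not overlap.

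The log2 fold changes of recurrent over primary tumours were below 0 for 53 of the 59 members and above 0 for 6, with a median of -0.23, against -0.01 over all tested genes. By class the medians were -0.26 for H1, -0.38 for H2A, -0.16 for H2B, -0.26 for H3 and -0.22 for H4. These values rest on primary replicate 2. It was the highest of the 6 tumours for 54 of the 59 members (91.5%), against 27.5% of all tested genes, and its members lay a median of 0.75 above the other 5 tumours on the log2 scale. Without it the median was 0.08, with 42 members above 0 and 17 below, and all 5 class medians turned positive.

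Other measures set primary replicate 2 apart from the other tumours as well. Its RNA integrity number, 7.8, was below those of the other 5 tumours, and its share of counts from structural small RNAs (small nuclear, small nucleolar, ribosomal and similar RNAs) was the highest, 14.51% (95% Wilson interval 14.50% to 14.52%), against 6.41% to 13.4% in the others. Summed over MKI67, TOP2A and PCNA, genes of dividing cells, the recurrent tumours had 1832, 2150 and 2002 TMM-scaled CPM. The primary tumours had 1480, 1039 and 1701, with primary replicate 2 the lowest of the 6. It was lowest for 2 of the 3 genes, a count without a background over all tested genes. Histone mRNAs are short, and with each tumour's trend over transcript length removed the median over members was 0.03, and only the H2A and H3 medians stayed below 0. The lengths were those of GENCODE models, with a median of 509 bases over members. Some members enter as long transcripts, such as H2BC15 at 4137 and H3C6 at 2679 bases, so the removal does not rest on short length alone. With the structural small RNAs left out of the table the median over members was -0.25. The parts of RNA integrity and of transcript length in the histone level were not tested.

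**Figure D4:**
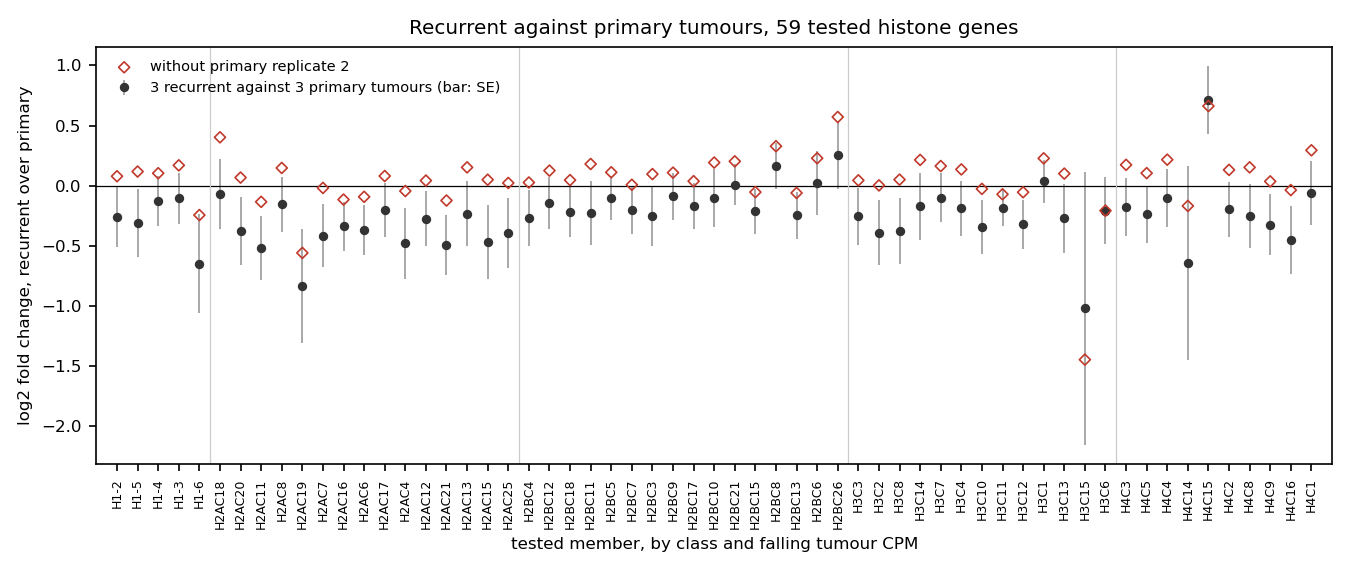
Log2 fold change of recurrent over primary tumours for the 59 tested members by class, as black points with the SE (3 against 3 tumours), and without primary replicate 2 as red diamonds. Most points lie just below 0 with SEs near it, and most diamonds lie at or above 0.

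Among the linker histones, H1-2 had 617, 553 and 677 TMM-scaled CPM in recurrent and 494, 1050.0 and 670.3 in primary tumours. Its groups overlapped, and primary replicate 2 was highest. The log2 fold change was -0.26 (SE 0.25, edgeR adjusted p = 0.770). H1-5 had 553, 473 and 612 TMM-scaled CPM in recurrent and 438, 1025 and 567 in primary tumours, a log2 fold change of -0.31 (SE 0.28, edgeR adjusted p = 0.756). H1-4 and H1-3 were at -0.13 (SE 0.21) and -0.11 (SE 0.21).

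Of the core histones that pair as H2A with H2B, H2AC11 had 189, 149 and 159.8 TMM-scaled CPM in recurrent and 154, 349 and 209.8 in primary tumours. Its log2 fold change of -0.52 (SE 0.26, edgeR adjusted p = 0.621) was the lowest of the 4 most abundant H2A genes, and its groups overlapped. H2AC20 was at -0.38 (SE 0.28), H2AC8 at -0.15 (SE 0.23) and H2AC18 at -0.07 (SE 0.29), and the sum of H2AC18 with its identical copy at -0.33 (SE 0.26). H2BC4 had 248, 219 and 291 TMM-scaled CPM in recurrent and 214, 418 and 282 in primary tumours, with a log2 fold change of -0.27 (SE 0.24, edgeR adjusted p = 0.747). H2BC12, H2BC18 and H2BC11 were at -0.14 (SE 0.22), -0.22 (SE 0.21) and -0.23 (SE 0.27).

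Of those that pair as H3 with H4, H3C2 had 285, 234 and 266 TMM-scaled CPM in recurrent and 218, 508 and 303 in primary tumours, again with overlapping groups and primary replicate 2 on top. Its log2 fold change was -0.39 (SE 0.27, edgeR adjusted p = 0.688). H3C3, H3C8 and H3C14 were at -0.26 (SE 0.24), -0.38 (SE 0.28) and -0.17 (SE 0.28). H4C3, H4C5 and H4C4 were at -0.18 (SE 0.24), -0.24 (SE 0.24) and -0.11 (SE 0.24).

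The extremes of the fold changes were members of the identical pairs. H4C15 had 73.4, 149.6 and 91.2 TMM-scaled CPM in recurrent and 46.1, 59.3 and 86.0 in primary tumours, and the groups overlapped. It had the highest log2 fold change, 0.71 (SE 0.28, unadjusted p = 0.0298, edgeR adjusted p = 0.572). Its copy H4C14 was at -0.65 (SE 0.81), and the sum of both at -0.05 (SE 0.22, edgeR adjusted p = 0.961). H3C15 had the lowest value, -1.02 (SE 1.13), and its sum with H3C14 was at -0.23 (SE 0.24). With no filter on low counts edgeR called 4 members, H3C15, H4C15, H4C14 and H2AC19, all of them from these pairs, where 1.36% of all genes were called.

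Genes that make or use histone mRNA were read beside them. Of 26 genes for histone gene transcription and mRNA processing, 18 lay above 0 and 8 below in recurrent over primary tumours, and none passed the threshold (edgeR; 2 at an unadjusted p under 0.05). SLBP, the stem-loop binding protein, had 57.3, 54.9 and 58.5 TMM-scaled CPM in recurrent and 62.4, 73.8 and 62.5 in primary tumours. The groups did not overlap, recurrent being lower, but the log2 fold change of -0.22 (SE 0.13) had an edgeR adjusted p of 0.651. NPAT, the coactivator of histone gene transcription, was at 0.11 (SE 0.23). POU2F1, the octamer factor that acts at H2B promoters, had 33.1, 36.6 and 36.9 TMM-scaled CPM in recurrent and 26.1, 21.6 and 27.9 in primary tumours, without overlap, and was at 0.49 (SE 0.15, unadjusted p = 0.00795, edgeR adjusted p = 0.521). TUT7, a uridylyl transferase that marks histone mRNA for decay, was at 0.34 (SE 0.13), and GON4L at 0.32 (SE 0.15).

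Of 23 histone chaperones 19 lay above 0 and 4 below, with none called and 0 at an unadjusted p under 0.05 (edgeR). CHAF1A, of the complex that deposits H3 and H4 behind the replication fork, was at 0.36 (SE 0.18), UBN1, of the H3.3 chaperone complex, at 0.31 (SE 0.17) and ANP32E, which removes H2A.Z, at 0.30 (SE 0.14). Of 12 replacement histones, which are made outside S phase as well, 11 were tested, with 7 above 0, 4 below and none called (1 at an unadjusted p under 0.05). H3-3A was at -0.37 (SE 0.16, unadjusted p = 0.0494, edgeR adjusted p = 0.590), H2AJ at -0.38 (SE 0.29) and CENPA, the centromeric H3, at 0.18 (SE 0.17). Of 22 S phase genes 17 lay above 0 and 5 below, with none called and 2 at an unadjusted p under 0.05. Their DNA polymerases POLE and POLA1 were at 0.42 (SE 0.17) and 0.47 (SE 0.20), and the flap nuclease FEN1 at 0.27 (SE 0.14). The S phase list summed to 2328, 2447 and 2529 TMM-scaled CPM in recurrent and 2234, 2159 and 2398 in primary tumours, and the sum was lowest in primary replicate 2. Gene by gene, that tumour was the lowest of the 6 for 8 of the 22 and the highest for 2, PRIM1 and SLBP. It was the highest for 27.5% of all tested genes. How often it was the lowest over all tested genes was not counted, so the 8 have no background to be read against.

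Against the culture, the histone share of the counts was higher in the tumours. On CPM of the library total the 69 genes summed to 8145, 6994 and 8134 in recurrent and 6708, 12130 and 8324 in primary tumours, against 5433 in the culture. All 6 tumours were above the culture, by 1.55-fold on average (8406 ± 1945, SD, n = 6), and with primary replicate 2 left out the log2 ratio was 0.50 in place of 0.63. There was 1 culture library, so no test is given. By the labels 29.4% to 64.4% of tumour reads were human, and whether rat reads were removed before counting is not given. The part of rat reads in the histone counts was not tested. With structural small RNAs left out, the histone genes summed to 7403 to 14190 CPM in tumours and 5830 CPM in the culture. Control replicates 1, 2 and 3 then had 1308, 3837 and 7068 CPM. By class the fold was 1.46 for H1, 1.70 for H2A, 1.54 for H2B, 1.52 for H3 and 1.46 for H4.

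Of the 59 members with a mean of at least 1 CPM, 44 had all 6 tumours above the culture, where 21.4% of 14111 genes did. Another 2 members (3.39%), H2BC26 and H3C15, had all 6 below it, where 32.85% of all genes did. H3C15 is of an identical pair, and its single value is uncertain. Its sum with H3C14 averaged 162 CPM in tumours against 134.5 CPM in the culture, a log2 ratio of 0.27. Past 2-fold, on log2 of CPM plus 0.5, 12 members were higher, which is 20.3% of them against a background of 4.46% of genes. None were lower past 2-fold, against a background of 7.39%. The median log2 ratio was 0.63 over members and -0.06 over all genes.

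H1-6 stood farthest from the culture. It had 44, 47 and 73 counts in recurrent and 72, 129 and 110 in primary tumours, against 11 counts in the far deeper culture library. That is 2.17, 1.86 and 2.93 CPM in recurrent and 2.84, 5.10 and 2.77 CPM in primary tumours, against 0.169 CPM in the culture, 17.4-fold higher on average. With the 11 culture counts taken at their exact 95% Poisson interval, 5.49 to 19.7 counts, that fold runs from 9.72 to 34.9, counting error only, and on CPM plus 0.5 it is 5.14-fold (log2 2.36). All 6 tumours were above the culture. Control replicate 3 had 20 counts, 4.81 CPM, which is within the tumour range, and the other controls had 0.

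H1-5 averaged 605 ± 183 CPM in tumours against 266 in the culture (2.27-fold), while H1-2 was 1.27-fold and H1-4 1.08-fold higher. H2BC8 averaged 51.6 ± 8.04 CPM in tumours against 10.7 in the culture (4.80-fold), and H2AC8, the gene on the other side of their shared start region, 199.5 ± 40.7 against 67.9 (2.94-fold). H2BC4 was at 276 ± 64.0 CPM in tumours and 120.1 in the culture (2.30-fold). H2BC8, named with H2BC6, H2BC7, H2BC13, H2AC4, H2AC15, H2AC16 and H3C12 as the other members past 2-fold, was chosen after its values were seen. No H4 gene passed 2-fold.

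All 12 lie on chromosome 6, where 45 members could be counted, and 39 of these 45 had all tumours above the culture. Of the 11 in the chromosome 1 cluster 5 had, and none passed 2-fold. The median log2 ratio was 0.77 on chromosome 6 and 0.44 in the chromosome 1 cluster, but the chromosome 1 cluster holds the 3 identical pairs. Head-to-head partners did not always go together: H2BC8 and H2AC8 were at 2.21 and 1.55, whereas H2BC21 and H2AC20 were at -0.17 and 0.71 on the log2 scale.

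**Figure D5:**
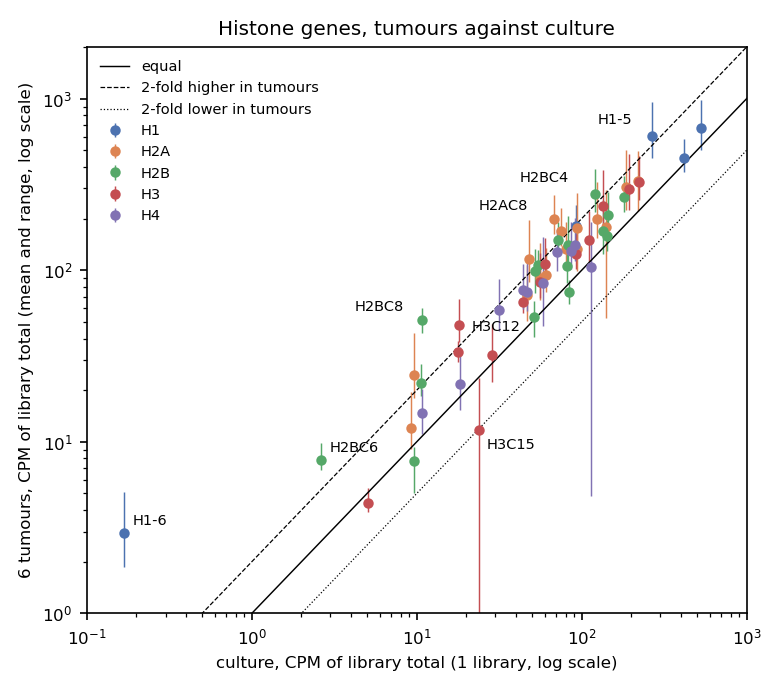
CPM of the library total of 59 members in 6 tumours (mean, with bars to the lowest and highest tumour) against 1 culture library, both on log axes, by class. Points above the dashed line are over 2-fold higher in tumours; the bars of H3C15 and H4C14 reach far down, and that of H3C15 to 0.

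The lists that make or copy DNA and chromatin were closer to the culture. The S phase genes had a median log2 ratio of 0.23, with 1 of 22 higher past 2-fold, the replacement histones 0.09, the histone mRNA regulators -0.004 and the chaperones -0.07. Of the glioma markers 4 of 8 were higher past 2-fold and 0 lower, against backgrounds of 4.46% and 7.39% of genes. Of the others, CD44, SOX2 and VIM averaged below the culture, at log2 ratios of -0.84, -0.67 and -0.30, and FN1 above it, at 0.37. Summed, the glioma markers averaged 8536 CPM in tumours, below the 9898 CPM of the culture. AIF1, CX3CR1, P2RY12 and PTPRC of microglia and immune cells, CLDN5 of endothelium and the 3 globin genes were at 0 in all tumours. Not every marker of these lists was. The microglia marker CSF1R averaged 2.55 CPM in tumours against 0.738 in the culture, and VWF of endothelium 0.863 against 0.999. Summed oligodendrocyte markers were 124 to 202 CPM in tumours, 135 CPM in the culture and 133 to 285 CPM in controls. Summed neuron markers were 15.6 to 22.5 CPM in tumours, 57.8 CPM in the culture and 82.7 to 373 CPM in controls.

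The controls show what the same pipeline counts in brains labelled tumour-free. The histone genes summed to 6708 to 12130 CPM of the library total in tumours, against 96.4, 393 and 4827 CPM in control replicates 1, 2 and 3, which rest on 131, 669 and 20072 counts. All 3 controls were below all 6 tumours, and replicate 3, which also carried glioma markers, was close to them. In edgeR's test of tumours against controls, 0 of 60 tested members were called, where 5.42% of all genes were. At an unadjusted p under 0.05 there were 17 members (28.3%), against 19.3% of all genes. DESeq2 called 1, H2AC14, a gene of at most 12 counts. H2AC14 had 5, 1 and 0 counts in control replicates 1, 2 and 3, and did not pass the filter on the tumours alone. It is among the tested members through its CPM in the shallow controls, so its calls are not read as a result. The median log2 fold change was 0.75 over members and 0.21 over all genes. Without control replicate 3, edgeR called 19 of 60 members, 18 of them higher in tumours and H2AC14 lower, where 15.4% of all genes were called. Structural small RNAs took 6.41% to 14.5% of the counts in tumours and 31.7% to 92.6% in controls. With them left out of the totals the histone genes summed to 7403 to 14190 CPM in tumours, against 1308, 3837 and 7068 CPM in control replicates 1, 2 and 3, so control replicate 3 then lay just under the lowest tumour.

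Some histone genes are annotated with transcripts that run on behind the stem-loop. The 22 tested members whose GENCODE transcript runs 100 or more bases past the stem-loop had a median log2 ratio over the culture of 0.59, and the 37 others of 0.63. In recurrent over primary tumours the medians were -0.25 and -0.23. Many of the others have models that stop at the end of the coding sequence, where a longer transcript would not be seen. Others have long models without a match, such as H3C6 at 2679 bases. The split therefore follows the annotation and cannot tell whether longer transcripts behave differently.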

How the data were processed

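RNA from 6 tumours, 3 control brains and 1 culture was sequenced from ribodepleted, reverse-stranded libraries, per the labels' protocols. The authors deposited an estimated count per gene (expected counts), made with Salmon 1.10.3, per the submitters' processing notes, which also name STAR, DESeq2 and GRCh38. Not given in the sources used here are the annotation release, how reads shared by copies were handled and whether rat reads were removed before counting.

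Estimated counts were rounded. Recurrent against primary tumours, and tumours against controls, were fitted with edgeR 4.0.16 (R 4.3.3; TMM, filterByExpr with a minimum count of 10, quasi-likelihood F test, Benjamini-Hochberg adjustment over all tested genes, threshold 0.05). DESeq2 1.42.0 and limma 3.58.1 (voom) were alternatives, with others for scaling, filter, libraries left out, graft percentage and transcript length. The fits were tested on simulated data with known changes. The culture, a single library, was compared by CPM of the library total with a pseudocount of 0.5 CPM and no test; called there means past 2-fold with all 6 tumours on one side. Stem-loops, lengths and coordinates come from GENCODE 29 (GRCh38).

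Members and lists were chosen with earlier results of these data known. Named were the 4 most abundant members of each class, the extremes of each comparison, the 3 genes of smallest p in each of 4 lists, SLBP and NPAT; other named genes were chosen after their values were seen. Depth limits each library to its total count, and intervals cover counting error only.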

Additional observations from a re-analysis of the deposited data

How the results depend on the processing

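No paired analysis was possible because the labels give the groups no shared replicate numbers. No setting other than the absence of a filter on low counts called a histone gene in recurrent against primary tumours (4 members without the filter). Over all genes 1 was called, against 411 without the filter, 107 by DESeq2, 0 by limma-voom, 0 with graft percentage as a covariate, 13 among libraries whose names start with IL, 2 with the length trend removed, and 0 to 23 with each tumour left out in turn. The H1 median log2 fold change was 0.04 with the length trend removed; leaving out each tumour it ran from -0.485 to 0.103, and the H2A median from -0.542 to 0.022, the highest in both cases without primary replicate 2. The causes were not tested. Libraries whose names start with IL include all primary tumours but only 1 recurrent tumour, and the other recurrent names start with NL. That setting therefore has no spread among recurrent tumours, and name and group cannot be separated in it. No conclusion is drawn from its count of genes.

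In tumours against controls, 889 genes were called, against 425 on library totals, 2125 without the filter, 1929 by DESeq2 and 389 to 2644 with each library left out; without control replicate 1 there were 389, without control replicate 3 there were 2644 and without primary replicate 2 there were 519. Members called were 0, against 6 without the filter, 1 by DESeq2 and 0 to 19 with each library left out. Against the culture, members lower past 2-fold were 0, against 1 with a pseudocount of 0.1 and 0 to 1 with each tumour left out, in each case H3C15. Members higher numbered 12, and 10 to 16 under the alternatives.

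The groups of 3 limit what can be detected, and the single culture library has no replicate check. The 2 shallow controls hold few histone counts. Levels of single genes in the identical pairs depend on how shared reads were divided; summing each pair, an alternative chosen after seeing the data, left 0 members called in recurrent against primary tumours.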
